A study of Homo sapiens with 9 samples.

Results

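The enzymes that make serine and pass its carbon to folate were examined in human cells labelled as the neuroblastoma line IMR-32. The 9 genes were PHGDH, PSAT1 and PSPH of serine synthesis, SHMT1, SHMT2, MTHFD1, MTHFD2 and MTHFD1L of the folate cycle, and TYMS of thymidylate synthesis. They were selected on their roles with earlier results of the same libraries known, and all 9 were found among the 22290 genes measured. RNA sequencing covered 9 libraries, 3 from parental wild-type cells, 3 from a line labelled as TRAP-1 knockdown (KD) and 3 from a line labelled as TRAP-1 overexpression (OE). TRAP-1 is the mitochondrial member of the HSP90 chaperone family. Each engineered condition is a single derived line that was made earlier, so an effect of TRAP-1 and any other difference between the lines cannot be told apart. Nothing in the sources used here says that the 3 libraries of a group came from separate cultures, and the p-values then measure only the spread between these libraries, which may be technical.

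Values are regularized log2 expression (rlog), in which a difference of 1 is a doubling and low genes are pulled towards their mean. Differences are group means subtracted on this scale. Libraries of the same group differed by a root mean square of 0.0582 to 0.0630 over all genes, and libraries of different groups by 0.137 to 0.255. The sequencing depth of each library cannot be read from these values.

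TRAP1 itself was measured at 10.67, 10.66 and 10.65 in the parental libraries. It was 10.79, 10.79 and 10.83 in the libraries labelled KD, all above the parental values, and 10.67, 10.63 and 10.74 in those labelled OE, which overlapped the parental values. The difference was 0.14 (SE 0.025, adjusted p = 1.76e-05 from limma) for KD and 0.018 (SE 0.025, adjusted p = 0.643 from limma) for OE. The OE value has no stable sign, and ran from -0.012 without OE replicate 3 to 0.042 without OE replicate 2. Other annotated genes share 28.5% of the exonic bases of TRAP1, and reads cannot be assigned with certainty there. The transcript of the targeted gene as measured goes against the label of the KD libraries and does not bear out that of the OE libraries. The groups are called the libraries labelled KD and OE.

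The labelled cell type was checked against its markers. Of 13 markers of adrenergic neuroblastoma, 9 were measured, and ISL1 alone had a mean rlog of at least 8, at 9.29. 4 of the 9 had a mean under 3, among them MYCN, whose amplification IMR-32 is known for, at 2.52 in the parental libraries. On the log2 scale the summed level of this list was 9.97, 9.93 and 9.96 in the parental libraries, 9.86, 9.82 and 9.83 in those labelled KD, and 9.87, 9.94 and 9.90 in those labelled OE. All 6 mesenchymal markers had a mean of at least 8, led by VIM at 15.89. The summed mesenchymal level was 16.71 in each parental library, 16.85, 16.85 and 16.84 in the libraries labelled KD, and 16.90, 16.89 and 16.91 in those labelled OE. This sum follows its most abundant genes, and the list went both ways in KD, with PRRX1 higher by 1.29 and VIM by 0.36 while FN1 differed by -0.96 and CD44 by -0.16. In OE, FN1 was higher by 0.55 and PRRX1 by 0.69, while CD44 differed by -0.034. Low adrenergic and high mesenchymal markers go against the labelled cell type, and the cells are called by their labels. The methods of the study state that the line was authenticated. Of 5 epithelial markers 3 were measured, led by KRT18 at 12.04, with EPCAM under 3. KRT8 was higher by 0.39 in KD and 0.40 in OE, and KRT18 differed by -0.096 in OE. The summed epithelial level was 12.21, 12.20 and 12.19 in parental, 12.25, 12.28 and 12.29 in KD, and 12.16, 12.14 and 12.16 in OE. Of 4 fibroblast markers 3 were measured and none averaged 8, the highest being COL1A1 at 4.18, and of 3 blood markers 2 were measured, the higher being CD14 at 3.91. The part of these marker differences in the enzyme values was not tested.

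Serine is made from the glycolytic intermediate 3-phosphoglycerate. PHGDH oxidizes it, PSAT1 transfers an amino group from glutamate, and PSPH removes the phosphate. The serine hydroxymethyltransferases then split serine into glycine and a carbon unit carried by folate, SHMT1 in the cytosol and SHMT2 in mitochondria. In mitochondria MTHFD2 and MTHFD1L turn that unit into formate, and in the cytosol MTHFD1 returns formate to folate for purine and thymidylate synthesis. These enzymes are studied in tumours because dividing cells draw on them for nucleotides.

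PHGDH (ENSG00000092621, chr1:119648411-119744218, GRCh38) had rlog values of 13.34, 13.34 and 13.31 in the parental libraries, 13.50, 13.53 and 13.56 in those labelled KD, and 13.53, 13.54 and 13.58 in those labelled OE. Every library of both engineered lines lay above every parental library. The difference from parental was 0.20 (95% interval 0.17 to 0.23) for KD and 0.22 (95% interval 0.19 to 0.25) for OE, which is 14.9% and 16.3% on the linear scale. The engineered lines overlapped each other.

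PSAT1 (ENSG00000135069, chr9:78297125-78330093) was at 12.82, 12.84 and 12.81 in the parental libraries, 12.13, 12.09 and 12.11 in those labelled KD, and 12.77, 12.79 and 12.76 in those labelled OE. Both engineered lines lay below parental without overlap, by very different amounts. The difference was -0.71 (95% interval -0.75 to -0.68) for KD, a ratio of 0.611, and -0.046 (95% interval -0.080 to -0.013) for OE, a ratio of 0.968.

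PSPH (ENSG00000146733, chr7:56011051-56051604) was at 10.89, 10.86 and 10.92 in the parental libraries, 10.70, 10.71 and 10.75 in those labelled KD, and 10.85, 10.89 and 10.88 in those labelled OE. The libraries labelled KD lay below all parental libraries, and those labelled OE overlapped parental. The difference was -0.17 (95% interval -0.21 to -0.12) for KD and -0.016 (95% interval -0.063 to 0.032) for OE. The OE value changed sign with quantile normalization (0.0022) and without parental replicate 3 (0.00064), and was -0.032 without parental replicate 2.

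The 3 serine pathway steps did not move together. In all 3 libraries labelled KD, PHGDH was above its parental mean, by 0.17, 0.20 and 0.23, while PSAT1 stood at -0.69, -0.73 and -0.71 from its own and PSPH at -0.19, -0.18 and -0.14. In the libraries labelled OE, PHGDH was again above its parental mean, by 0.20, 0.21 and 0.25, with PSAT1 at -0.048, -0.031 and -0.059. PSPH, which overlapped parental there, stood at -0.036, -0.0038 and -0.0075. PHGDH minus PSAT1 within a library averaged 0.51 ± 0.012 (SD, n = 3) in parental, 1.42 ± 0.044 (SD, n = 3) in KD and 0.77 ± 0.039 (SD, n = 3) in OE. PSAT1 minus PSPH averaged 1.93 ± 0.048 (SD, n = 3) in parental, 1.39 ± 0.037 (SD, n = 3) in KD and 1.90 ± 0.020 (SD, n = 3) in OE. PSAT1 and PSPH thus shared a direction in the libraries labelled KD but not a size, and PHGDH went the other way. PSAT1 lies among genes of chromosome 9 of which most were lower in KD, and their part in its size was not tested. Ranked by the root mean square difference between mean-centred values over the 9 libraries, PSPH was number 16890 and PSAT1 number 21913 of 22289 genes in closeness to PHGDH. PSPH was number 2472 in closeness to PSAT1, and PSAT1 number 21005 in closeness to PSPH. The measure counts size as well as direction, and PSAT1 varied around its mean by a root mean square of 0.325 and PSPH by 0.078.

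**Figure D1:**
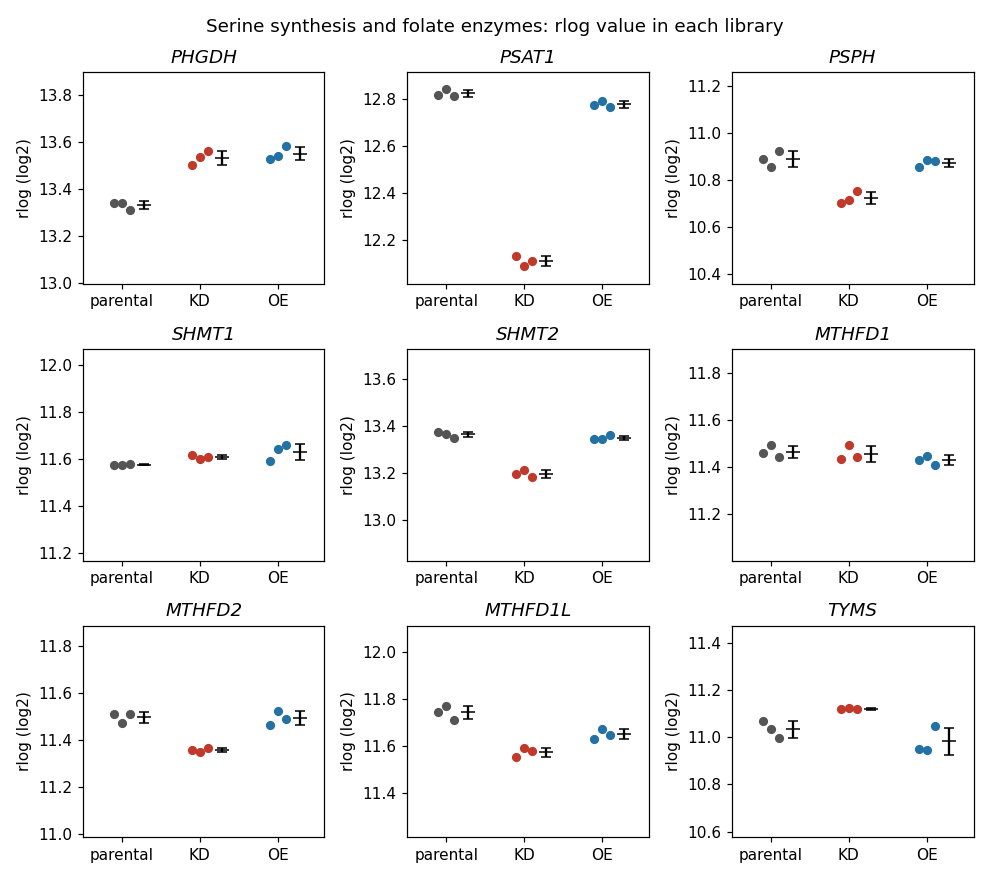
Each panel plots the rlog value (log2, vertical axis) of a gene in the 3 parental, 3 KD and 3 OE libraries as points, with the group mean and SD as a bar beside them, over an equal span of values. PHGDH is above parental in both engineered lines, and PSAT1 is 0.71 lower in the libraries labelled KD.

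Among the hydroxymethyltransferases, the mitochondrial SHMT2 (ENSG00000182199, chr12:57229573-57234935) was at 13.37, 13.37 and 13.35 in the parental libraries, 13.19, 13.21 and 13.18 in those labelled KD, and 13.34, 13.34 and 13.36 in those labelled OE. The libraries labelled KD lay below all others, with a difference from parental of -0.17 (95% interval -0.20 to -0.14). The OE difference was -0.015 (95% interval -0.043 to 0.014), and it changed sign with quantile normalization. The cytosolic SHMT1 (ENSG00000176974, chr17:18327860-18363563) was at 11.57, 11.57 and 11.58 in the parental libraries, 11.62, 11.60 and 11.61 in those labelled KD, and 11.59, 11.64 and 11.66 in those labelled OE. Both lines lay above parental, with differences of 0.033 (95% interval -0.0077 to 0.073) for KD and 0.054 (95% interval 0.014 to 0.095) for OE. With median centring the KD value of SHMT1 was 0.021. SHMT2 minus SHMT1 averaged 1.79 in parental, 1.59 in KD and 1.72 in OE.

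The mitochondrial folate enzymes MTHFD2 and MTHFD1L shared a direction in the libraries labelled KD. MTHFD2 (ENSG00000065911, chr2:74186172-74217565), the dehydrogenase and cyclohydrolase, was at 11.51, 11.47 and 11.51 in the parental libraries, 11.36, 11.35 and 11.37 in those labelled KD, and 11.46, 11.52 and 11.49 in those labelled OE. The KD libraries lay below all others, by -0.14 (95% interval -0.18 to -0.098) from parental, and OE overlapped parental. MTHFD1L (ENSG00000120254, chr6:150865679-151101887), which releases formate, was at 11.74, 11.77 and 11.71 in the parental libraries, 11.55, 11.59 and 11.58 in those labelled KD, and 11.63, 11.67 and 11.65 in those labelled OE. Both lines lay below parental, at -0.17 (95% interval -0.21 to -0.13) for KD and -0.092 (95% interval -0.13 to -0.051) for OE. MTHFD1 (ENSG00000100714, chr14:64388031-64463457), the cytosolic counterpart, ranged from 11.41 to 11.50 over the 9 libraries, and all groups overlapped.

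TYMS (ENSG00000176890, chr18:657653-673578), which makes thymidylate with a folate carbon, was at 11.07, 11.03 and 11.00 in the parental libraries, 11.12, 11.12 and 11.12 in those labelled KD, and 10.95, 10.95 and 11.05 in those labelled OE. The libraries labelled KD lay above parental by 0.087 (95% interval 0.036 to 0.14), and OE overlapped parental. The gene ENOSF1 lies across the end of TYMS on the opposite strand, and 47.9% of the exonic bases of TYMS are shared with other genes. The library kit does not mark strand, so reads of the pair cannot be told apart there. ENOSF1 was higher by 0.28 (SE 0.023, adjusted p = 2.92e-12 from limma) in the libraries labelled KD and by 0.097 (SE 0.023, adjusted p = 0.00113 from limma) in those labelled OE. For MTHFD2, 14.1% of exonic bases are shared with other genes. Of its 7 annotated pseudogenes 2, MTHFD2P1 and MTHFD2P7, were also measured, at mean rlog values of 4.57 and 3.73 beside 11.45 for MTHFD2, and how reads were split between them is not given.

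**Figure D2:**
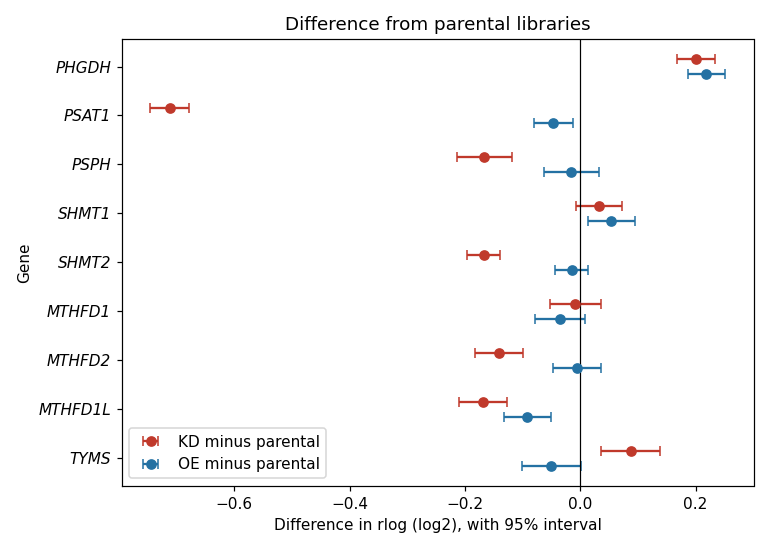
Points give the difference in rlog (log2, horizontal axis) of the KD and the OE libraries from parental for each gene, and bars the 95% interval from limma. PHGDH lies right of 0 in both lines, while PSAT1 in KD stands at -0.71.

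Called at an adjusted p under 0.05 over all genes, 7 of the 9 genes passed for KD against parental, beside 53.7% of all genes. Of these, 2 were higher (PHGDH and TYMS), beside 26.9% of all genes, and 5 were lower (PSAT1, PSPH, SHMT2, MTHFD2 and MTHFD1L), beside 26.9%. For OE against parental 4 passed, beside 34.8% of all genes. PHGDH and SHMT1 were higher, beside 16.9%, and PSAT1 and MTHFD1L lower, beside 18.0%. PHGDH and MTHFD1L passed for OE under each alternative run. The OE call of PSAT1 was lost without the variance trend, with quantile normalization, and without parental replicate 1, parental replicate 2, OE replicate 1 or OE replicate 3. That of SHMT1 was lost without the variance trend, with median centring, and without parental replicate 1, 2 or 3, OE replicate 2 or OE replicate 3. TYMS passed, as lower, with median centring and without OE replicate 3. Without the variance trend, or without parental replicate 1 or 2, the count for OE was 2. For OE against KD 6 passed, beside 47.3% of all genes, with PSAT1, PSPH, SHMT2, MTHFD2 and MTHFD1L higher in OE, beside 23.5%, and TYMS lower, beside 23.8%. Groups did not overlap for 8 of the 9 genes between KD and parental, beside 59.2% of all genes, and for 4 between OE and parental, beside 43.2%. The comparisons with parental share the parental libraries, and because the genes were chosen by roles with results known, nothing is read from these counts.

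Per kilobase of annotated exon, the parental level was highest for PSAT1, at a log2 of 11.68, followed by SHMT2 at 11.16, PHGDH at 10.13 and TYMS at 9.76. MTHFD1L at 9.45 and PSPH at 9.42 differed by about the spread between libraries. SHMT1 at 8.76, MTHFD2 at 7.98 and MTHFD1 at 7.35 were lowest. Exons were merged over all annotated transcripts, which lowers the level of genes with many of them.

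The genes closest to each enzyme were ranked by the same root mean square difference over 9 libraries, among those whose rlog averaged 8 or more. PRAME (0.019), SLC6A8 (0.022) and CKAP4 (0.024) were closest to PHGDH. EPB41L1 (0.019), LINC00662 (0.026) and DPYSL5 (0.038) were closest to PSAT1, and ABCA2 (0.014), ZNG1A (0.018) and TMEM132A (0.018) to PSPH. UPF3B, ZNF462 and DAP3 were closest to SHMT2, ZNHIT1, GNB1 and IMMT to SHMT1, and TBC1D9, NRBP1 and FMN2 to MTHFD1. HMOX2, YARS2 and C11orf24 were closest to MTHFD1L, and FIBP, ING5 and GTF3C2-AS2 to TYMS. The closest to MTHFD2 were KLHL7 (0.017), PSPH (0.018) and YAE1 (0.019), all on chromosome 7. Among all genes PSPH was number 6 in closeness to MTHFD2, and SHMT2 number 59. The other serine enzymes were far from it by this measure, PHGDH at number 17936 and PSAT1 at number 21185.

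PSAT1 lies in a stretch of chromosome 9 where most genes were lower in the libraries labelled KD. Of the 26 other genes averaging 8 or more in rlog whose starts fall in the same 20-Mb block, 92.3% were lower in KD than in parental, with a median difference of -0.38. PSAT1 stood -0.33 from that median, and 2 of the 26 were as low or lower. For OE the median of the same genes was -0.060 and PSAT1 was at -0.046. With the median of every gene in a block removed, low genes included, the KD difference of PSAT1 was -0.66. That median removes less than the median of the 26 genes does. Low genes have differences pulled towards 0 in rlog, and their part in this was not tested. The lower stretch was wider than this block. Further along chromosome 9, most genes averaging 8 or more were also lower in KD in the blocks of SPTLC1 and FPGS. Their KD medians were -0.36 over 58 genes and -0.35 over 163. The block of GLDC, which lies before PSAT1 on the chromosome, went the other way, with a KD median of 0.16 over 42 genes. The part of the region in the value of PSAT1 was not tested. The blocks of the other 8 enzymes had KD medians from -0.0018 to 0.045, beside -0.0070 for all 9956 genes averaging 8 or more.

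**Figure D3:**
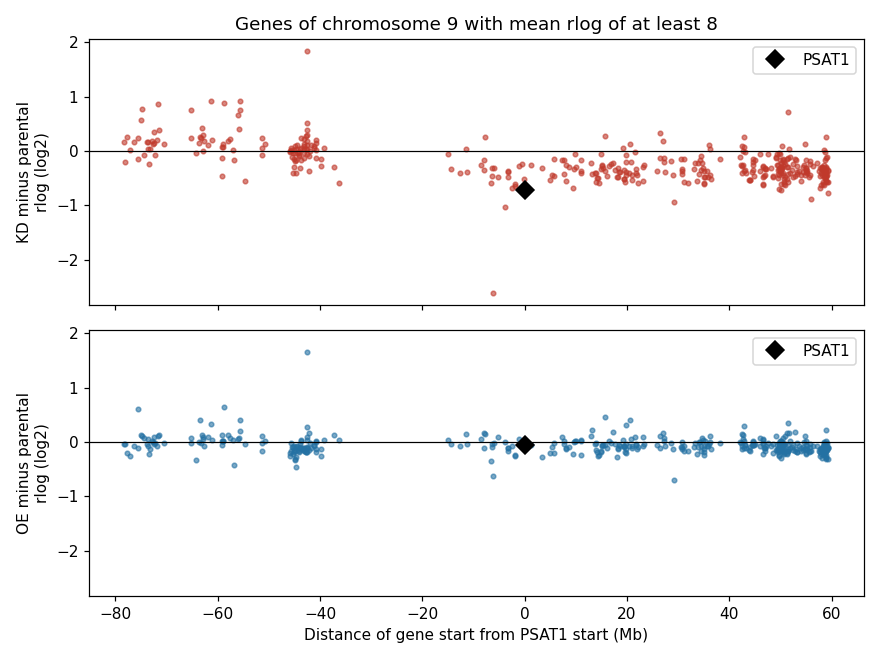
Each point is a gene of chromosome 9 whose rlog averaged 8 or more, placed by the distance of its start from that of PSAT1 (Mb, horizontal axis) and by its difference from parental (log2, vertical axis), for KD above and OE below. In KD, PSAT1 at -0.71 sits among genes of which most are below 0.

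Promoter sequences were matched for 7 of the 9 genes in RefSeq (GRCh38.p14), from 250 bases before to 50 after the start. Both strands were searched for CACGTG, the E-box that MYC family dimers bind, and for TGATGNAA, the core bound by ATF4 with C/EBP. CACGTG was held by 7.26% and TGATGNAA by 3.62% of all 35116 promoters. The promoters of PHGDH (chr1:119711684-119711983, plus strand) and PSAT1 (chr9:78296875-78297174, plus strand) are shown because these steps moved apart, and that of MTHFD1L (chr6:150866236-150866535, plus strand, 1 of its listed starts) because it holds both motifs, in capitals. PHGDH and PSAT1 had neither motif in this window.
PHGDH: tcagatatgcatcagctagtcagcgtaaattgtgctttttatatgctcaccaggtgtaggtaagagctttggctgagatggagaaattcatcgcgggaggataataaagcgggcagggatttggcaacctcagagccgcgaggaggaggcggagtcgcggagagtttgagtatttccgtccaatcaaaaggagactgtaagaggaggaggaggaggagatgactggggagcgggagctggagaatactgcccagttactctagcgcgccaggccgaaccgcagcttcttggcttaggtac
PSAT1: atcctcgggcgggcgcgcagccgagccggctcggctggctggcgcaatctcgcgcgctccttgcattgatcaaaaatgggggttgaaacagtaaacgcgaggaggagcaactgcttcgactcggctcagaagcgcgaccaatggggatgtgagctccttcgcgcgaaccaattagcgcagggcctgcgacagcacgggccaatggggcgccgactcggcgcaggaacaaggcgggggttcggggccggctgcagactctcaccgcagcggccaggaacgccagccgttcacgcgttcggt
MTHFD1L: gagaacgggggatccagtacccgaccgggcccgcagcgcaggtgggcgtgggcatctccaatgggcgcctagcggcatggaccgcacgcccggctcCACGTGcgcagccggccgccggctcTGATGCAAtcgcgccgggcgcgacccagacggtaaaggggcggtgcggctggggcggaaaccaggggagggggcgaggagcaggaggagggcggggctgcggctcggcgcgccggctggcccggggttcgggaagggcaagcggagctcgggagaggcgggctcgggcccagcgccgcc
In the MTHFD1L sequence CACGTG begins at -154 and TGATGCAA at -129 from the start. Measured from other listed starts, the positions are -115 and -90 (chr6:150866197-150866496) and -1 and 24 (chr6:150866083-150866382). MTHFD1 held CACGTG at -15. SHMT1, MTHFD2, TYMS and another listed start of MTHFD1L (chr6:151006758-151007057) held neither motif in their windows.

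The regulators known for these genes were measured as well. In the counts of lists that follow, higher and lower mean called at an adjusted p under 0.05 from limma. Of all genes, 26.9% were called higher and 26.9% lower for KD, and 16.9% higher and 18.0% lower for OE. With each library centred on its median, 2963 genes were called higher and 5212 lower for OE, beside 3762 and 4002 without it. Nothing particular to a list is read from its count. ATF4, which drives amino acid synthesis genes, was lower in the libraries labelled KD by -0.12 (SE 0.014, adjusted p = 8.49e-09 from limma), in 3 of 3 libraries. Its OE difference was -0.043 (SE 0.014, adjusted p = 0.0172 from limma). It did not pass without the variance trend, with block medians removed (-0.030), or without parental replicate 1 or 2 or OE replicate 2 (-0.028). The adjusted p from limma there ran from 0.0757 to 0.179. MYC was lower in both, by -0.41 (SE 0.035, adjusted p = 7.61e-12 from limma) in KD and -0.14 (SE 0.035, adjusted p = 0.00221 from limma) in OE. MYCN, at a low level, was higher in KD by 0.081 (SE 0.027, adjusted p = 0.0129 from limma), a call lost without parental replicate 2 (adjusted p = 0.123), and its OE difference was -0.0057 (adjusted p = 0.905 from limma). Of 13 measured ATF4 targets outside the pathway, 8 were lower and 3 higher in KD, with a median difference of -0.19, and 8 were lower and 2 higher in OE, with a median of -0.22. ATF3 (-1.12), SLC7A5 (-0.84) and CHAC1 (-0.82) fell furthest in KD, while in OE VLDLR rose by 0.61 and ATF3 differed by -0.44. The median over all genes was -0.00051 for KD and 0.00039 for OE.

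Of 113 other genes of the pathway and its surroundings, 100 were measured and the rest were not analysed here. In KD 57 were called lower, 19 higher and 24 neither, with a median difference of -0.087, and in OE 46 were called lower, 14 higher and 40 neither, with a median of -0.036. The enzymes that supply 3-phosphoglycerate and lie near it in glycolysis were higher for 4 of 5 and lower for 1 in each line, with medians of 0.093 in KD and 0.14 in OE. GAPDH was higher by 0.22 in KD and 0.14 in OE, and PGK1 by 0.093 and 0.32. The OE call of ENO1 (0.10) was lost with quantile normalization, where the difference was 0.014 (adjusted p = 0.168 from limma).

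Folate enzymes and carriers were lower for 7 and higher for 3 of 16 in KD (median -0.062), where 53.7% of all genes were called, and lower for 4 and higher for 3 in OE (median -0.0071), where 34.8% were. FPGS, which adds glutamates that hold folate in cells, differed by -0.49 in KD and -0.14 in OE. It lies on chromosome 9, where 163 other genes of its 20-Mb block averaging 8 or more had medians of -0.35 and -0.10. The folate carrier SLC19A1 differed by -0.38 and -0.23. MTR, the methionine synthase that uses methyl folate, was higher by 0.17 and 0.14. Of 9 serine and glycine transporters, 7 were lower and 2 higher in KD (median -0.15), and 4 lower and 1 higher in OE (median -0.041). SLC1A5, a carrier of serine and other neutral amino acids, differed by -0.38 in KD and -0.18 in OE, while the mitochondrial carrier SFXN3 was higher by 0.34 and 0.20.

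Among 16 genes of serine and glycine use, 2 were higher and 6 lower in KD (median -0.059), beside the 53.7% of all genes called. GLDC, of the glycine cleavage system, was higher by 0.87 (SE 0.028) in KD and by 0.11 (SE 0.028) in OE. SPTLC1, a subunit of the enzyme that joins serine to palmitate, differed by -0.40 in KD. Both lie on chromosome 9, where the 42 block neighbours of GLDC had a KD median of 0.16 and the 58 of SPTLC1 a KD median of -0.36. In OE 1 was higher and 3 lower (median 0.0063). Of 7 methionine cycle genes, 3 were lower and 1 higher in KD (median -0.0025), and 2 lower and 1 higher in OE (median -0.018), with AHCY at -0.27 and -0.23.

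Of 13 purine and thymidylate genes, 9 were lower and 2 higher in KD (median -0.071), and 6 lower and 2 higher in OE (median -0.040). RRM2, a subunit of ribonucleotide reductase, differed by -0.19 and -0.23. Of 18 genes of DNA replication, 14 were called lower and 1 higher in KD, with a median of -0.21, and 16 were called lower in OE, with a median of -0.15. E2F1 differed by -0.83 in KD and -0.54 in OE, and PCNA by -0.48 and -0.31. The gene of this list called higher in KD was CDT1, by 0.24. TYMS, also an S-phase gene, was higher in KD, though its reads cannot be told from those of ENOSF1 where the 2 genes overlap.

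**Figure D4:**
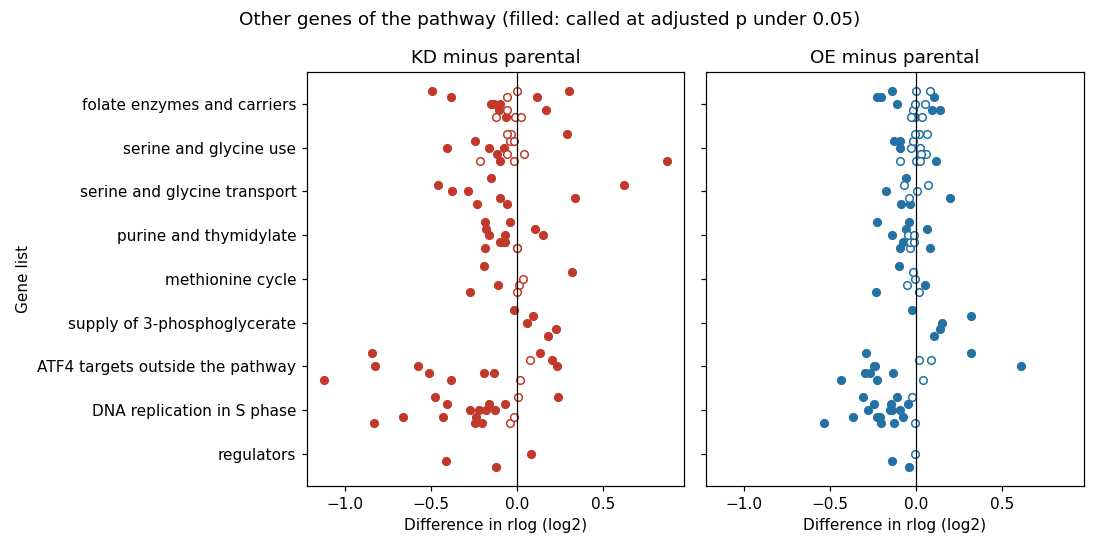
Points are other genes of the pathway by list (vertical axis), at their difference from parental (log2, horizontal axis) in KD and OE; filled points were called at an adjusted p under 0.05. DNA replication genes lie mostly left of 0 in both, with medians of -0.21 and -0.15.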

How the data were processed

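RNA was sequenced from 9 libraries made with a kit that does not mark strand. Per the submitters' processing notes, the authors trimmed reads with cutadapt, aligned them to GRCh38 with HISAT2, counted genes with featureCounts of Subread and used DESeq2, and deposited rlog values, which are on a log2 scale. Strand and multimapping settings of the counting are not given in the sources used here. Counts were not used, and rlog values do not show the depth of each library. 3 empty columns of the table were not used.

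Symbols, positions and exon lengths came from the GENCODE annotation of GRCh38, which named 22195 of 22290 genes. Group means were compared with limma 3.58.1 in R 4.3.3, with a variance trend, over all 9 libraries, with Benjamini-Hochberg adjustment over all genes and calls at 0.05. The fit was tested on simulated data. A further marker list is not reported here. Descriptions used Python 3.11.15 with pandas 2.3.3, numpy 2.4.6 and matplotlib 3.10.9. The members and lists were chosen with earlier results of these data known, so no p-value is given for the 9 enzymes. Other genes named were TRAP1, ENOSF1, measured pseudogenes, ATF4, MYC and MYCN, up to 4 called genes of each list and comparison with the largest difference, and the 3 closest genes averaging 8 or more in rlog for each enzyme. Markers of the cell type lists were named outside this rule. Alternatives were no variance trend, a mean rlog of at least 5, only the 2 groups compared, a replicate block, median centring, quantile normalization, removal of 20-Mb block medians and each library left out.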

Additional observations from a re-analysis of the deposited data

How the results depend on the processing

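The 9 enzymes gave 7 calls for KD against parental and 6 for OE against KD under each alternative run, including each library left out. For OE against parental, 4 calls became 2 without the variance trend, and 2 to 4 with a library left out; the cause was not tested. Counts over all genes and over the other pathway genes stayed within 1.5 times under each alternative, as did the side of the threshold of TRAP1. Deviations of same-numbered libraries from their group means correlated at -0.046 to 0.10. Libraries with different numbers were not correlated for comparison, so whether the replicate numbers pair the libraries cannot be decided from this. With a replicate block, 12015 genes were called for KD against parental, 7854 for OE against parental and 10623 for OE against KD, beside 11980, 7764 and 10552 without it, and the enzymes gave 7, 4 and 6 calls. Of 54 differences of the enzymes from parental under the 3 rescalings (median centring, quantile normalization and block medians removed), 8 moved by more than the SD between libraries. The other alternatives leave a difference of group means as it is or, by leaving a library out, cannot move it by that SD. Centring each library on its median moved the median of all genes by -0.011 for KD and -0.018 for OE, and turned 3762 higher and 4002 lower calls for OE into 2963 and 5212, and 5985 and 5995 for KD into 5455 and 6623. Of the other genes that the naming rule takes, 18 values under alternatives lost their call, 5 of them for ATF4 in OE, 6 for DMGDH in OE and 3 for PEMT in KD. The rlog values do not show depth, and rlog shrinkage limits what can be read from low genes such as MYCN.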
